A study of Mus musculus with 6 samples.

Results

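A set of 10 genes of lipid transport, out of 28324 genes in the count table, was followed across the cell classes of the mouse hippocampus. They were taken by name: the apolipoproteins Apoe, Apoc1, Apod and Clu, the lipid transporters Abca1, Abcg1 and Abca7, the lipase gene Lpl, the lipid droplet gene Plin2 and the receptor gene Nr1h3. Hippocampal cells of 6 APP/PS1 mice were profiled by Drop-Seq, in which single cells are captured in droplets with barcoded beads and each 3′ end of a transcript is tallied by its molecular barcode, the unique molecular identifier (UMI). The 3 ASO mice (replicates 1 to 3) had received an antisense oligonucleotide, and the 3 PBS mice (replicates 1 to 3) had received phosphate buffered saline. All 6 were 10 weeks old and of the strain B6.Cg-Tg(APPswe,PSEN1dE9)85Dbo/Mmjax, so the PBS mice carried the APPswe and PSEN1dE9 transgenes as well. The title of the study names reduction of IDOL, the product of Mylip, and the sequence, dose and route of the oligonucleotide were not used here. Since PBS mice received no oligonucleotide at all, what the target does and what any oligonucleotide does cannot be told apart.

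Apolipoproteins coat lipid particles and make them soluble. In the brain, APOE is made mainly by astrocytes, and microglia raise it when they respond to plaques or damage. The membrane pumps ABCA1 and ABCG1 load cholesterol and phospholipid onto such particles. Liver X receptors (LXRs), which sense oxidised sterols and pair with retinoid X receptors, switch on Abca1, Abcg1, Apoe, Apoc1, Lpl and Mylip, and IDOL in turn marks lipoprotein receptors for degradation.

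LXRs bind a direct repeat of the half-site AGGTCA with 4 bases of any kind between the copies, and the promoter windows of Abca1 and Apoe are shown because they are textbook LXR targets and because Apoe had the lowest p of the 10 genes. RefSeq promoter windows (GRCm38.p6, 250 bases before to 50 bases after a start) matched 6 of the 10 genes, and both strands were searched. The Abca1 window lies at chr4:53159846-53160145 on the minus strand and the first Apoe window at chr7:19699139-19699438 on the minus strand. Capitals mark a stretch of Abca1 that, read on its reverse strand, differs from the repeat at 3 of the 12 fixed letters and ends 52 bases before the start.
Abca1: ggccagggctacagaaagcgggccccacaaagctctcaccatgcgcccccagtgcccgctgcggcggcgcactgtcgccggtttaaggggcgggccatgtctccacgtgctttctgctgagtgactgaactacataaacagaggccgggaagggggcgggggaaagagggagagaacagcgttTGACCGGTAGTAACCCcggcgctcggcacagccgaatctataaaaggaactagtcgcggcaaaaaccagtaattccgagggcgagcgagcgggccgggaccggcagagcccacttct
Apoe: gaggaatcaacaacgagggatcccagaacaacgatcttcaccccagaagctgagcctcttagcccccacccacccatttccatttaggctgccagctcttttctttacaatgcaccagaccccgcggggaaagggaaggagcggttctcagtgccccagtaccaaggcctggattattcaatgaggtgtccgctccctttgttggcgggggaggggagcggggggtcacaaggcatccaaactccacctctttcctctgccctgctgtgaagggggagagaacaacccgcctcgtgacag
At most 3 differences were found in 7189 of 32851 promoter windows of the same length (21.9%), so such a stretch is common. The best stretches in the windows of Apoe, Plin2, Nr1h3 and Abca7 differed at 4 letters and that of Apod at 5. A match describes letters only. Apoe and Apoc1 are neighbours on chromosome 7, both on the minus strand, with 3448 bases between them.

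After removal of called doublets, 12616 of 12823 cells remained, 1751 to 2822 per mouse with 2005768 to 3150332 UMIs, and 8 cell barcodes were seen in more than 1 mouse. The 17 cell classes were the authors', carried in the column names. Markers of each checked class were highest in the class of that name, but cells labelled as Cajal-Retzius neurons also carried choroid plexus markers, mostly Ttr, at 12159 to 98887 CPM (UMIs of a gene per 1000000 UMIs of the class) per mouse. At least 20 cells in every mouse were found in 10 classes, which were tested, and the other 7 were not. Levels below are CPM of all UMIs of a class, with the SD over 6 mice. The authors built the classes from the same cells, so levels are set between classes as a description. P-values measure the spread between these mice.

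Apoe, the main lipid carrier of the brain, was highest in astrocytes at 16828 ± 1871 CPM and next in microglia and macrophages at 9625 ± 3348 CPM (SD, n = 6). These classes held 53.0% and 27.5% of the 71268 Apoe UMIs. The lowest astrocyte value, 14560 CPM, lay above the highest microglial value, 13985 CPM, and the lowest microglial value, 6075 CPM, above the highest of polydendrocytes, the authors' name for oligodendrocyte precursors, 3033 CPM. Polydendrocytes (2320 ± 513 CPM) and oligodendrocytes (1827 ± 89.4 CPM) overlapped, as did Cajal-Retzius cells, endothelial cells and mural cells (means of 934, 912 and 592 CPM). Mural cells lay above CA1 neurons in all 6 mice without overlap, and CA1, dentate and subiculum neurons at 198 to 222 CPM could not be ordered. Among classes too small to test, ependyma had 6685 ± 862 CPM, fibroblast-like cells 5194 ± 2108 CPM and choroid plexus 3765 ± 790 CPM.

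The 2 main Apoe classes differed in how Apoe was spread over cells. At least 1 Apoe UMI was found in 99.9% of astrocytes, with a median of 18 UMIs per cell and a highest count of 86. In microglia and macrophages 55.2% of cells held Apoe (exact 95% interval 52.9 to 57.5%, counting error only), with a median of 1, a 90th percentile of 37 and a highest count of 258. Dentate neurons, which are not known as an Apoe source, held it in 20.9% of cells at a median depth of 1195 UMIs per cell, against 985.5 in microglia and macrophages, and never above 4 UMIs.

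Astrocyte marker UMIs were seen in other classes too, so Apoe was also set against them. Per UMI of 6 astrocyte markers there were 0.569 Apoe UMIs in astrocytes, 0.411 in CA1 neurons, 0.40 in dentate neurons and 0.276 in subiculum neurons. The ratio was 1.6 in polydendrocytes, 1.99 in endothelial cells, 3.23 in oligodendrocytes and 15.2 in microglia and macrophages. Over the 6 mice the ratio ran from 0.507 to 0.604 in astrocytes, 0.288 to 0.639 in CA1 neurons, 0.307 to 0.603 in dentate neurons and 0.200 to 0.389 in subiculum neurons, so CA1 and dentate neurons overlapped astrocytes. The part of free RNA in neuronal Apoe was not tested.

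Clu encodes clusterin, an apolipoprotein that also acts as a chaperone outside the cell. It was an astrocyte gene here, with 6019 ± 470 CPM, UMIs in 97.3% of cells and 84.2% of its 16009 UMIs, and the other tested classes lay at 353 CPM or lower. Per astrocyte marker UMI, Clu ran at 0.203 in astrocytes. It ran lower in microglia and macrophages (0.139), oligodendrocytes (0.182) and dentate neurons (0.193), and higher in subiculum neurons (0.206), mural cells (0.236), polydendrocytes (0.242), endothelial cells (0.254), CA1 neurons (0.295) and cells labelled Cajal-Retzius (0.325). In each of these 9 classes the range over mice overlapped that of astrocytes, 0.180 to 0.225. Among classes too small to test, ependyma (3140 ± 521 CPM) ran at 1.36 Clu UMIs per astrocyte marker UMI, choroid plexus (2305 ± 389 CPM) at 3.72 and interneurons at 0.427.

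Apod, a lipocalin of myelinating and meningeal cells, was highest in fibroblast-like cells at 18210 ± 6990 CPM. Of the tested classes oligodendrocytes led at 4390 ± 573 CPM, with 91.9% of cells positive and 82.7% of Apod UMIs, and endothelial cells followed at 220 ± 89.5 CPM without overlap. Apoc1, which encodes a small apolipoprotein, had 67 UMIs in all, 38 of them in astrocytes (16.7 ± 6.73 CPM) and 6 in microglia and macrophages. The neighbours Apoe and Apoc1 therefore shared their leading class among the 10 tested, but in the next Apoe class only 0.324% of cells held an Apoc1 UMI.

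The efflux pumps divided by cell class. Abca1, which moves cholesterol onto lipid-poor apolipoproteins, had 154 ± 20.1 CPM in microglia and macrophages, 121 ± 18.4 CPM in astrocytes and 102 ± 48.5 CPM in polydendrocytes. Microglia stood above astrocytes within each of the 6 mice, although the ranges overlapped. Abcg1, which loads sterol onto formed particles, was highest in oligodendrocytes at 234 ± 33.9 CPM with 51.1% of its 1500 UMIs, then in polydendrocytes at 188 ± 54.3 CPM and in microglia at 121 ± 10.3 CPM. Astrocytes, next to microglia for Abca1, had 6 Abcg1 UMIs in 1877 cells (2.82 ± 1.94 CPM). Abca7, a phospholipid transporter of phagocytes, had 201 UMIs and no tested class above 29.0 CPM, and neighbours in its order overlapped throughout.

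Lpl encodes lipoprotein lipase, which releases fatty acids from particle triglyceride. Microglia and macrophages had 424 ± 86.9 CPM of Lpl and 82.8% of its 1053 UMIs, above CA1 neurons at 109 ± 42.6 CPM and mural cells at 87.2 ± 37.2 CPM. Plin2 encodes perilipin 2, the coat protein of lipid droplets. Its 271 UMIs put endothelial cells (44.5 ± 14.5 CPM), mural cells (40.3 ± 20.1 CPM) and microglia (37.2 ± 13.8 CPM) together, with overlapping ranges. Nr1h3, which encodes LXRα, had 97 UMIs, with 35.7 ± 35.2 CPM in mural cells and 7 UMIs in microglia and macrophages (3.41 ± 4.19 CPM).

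**Figure D1:**
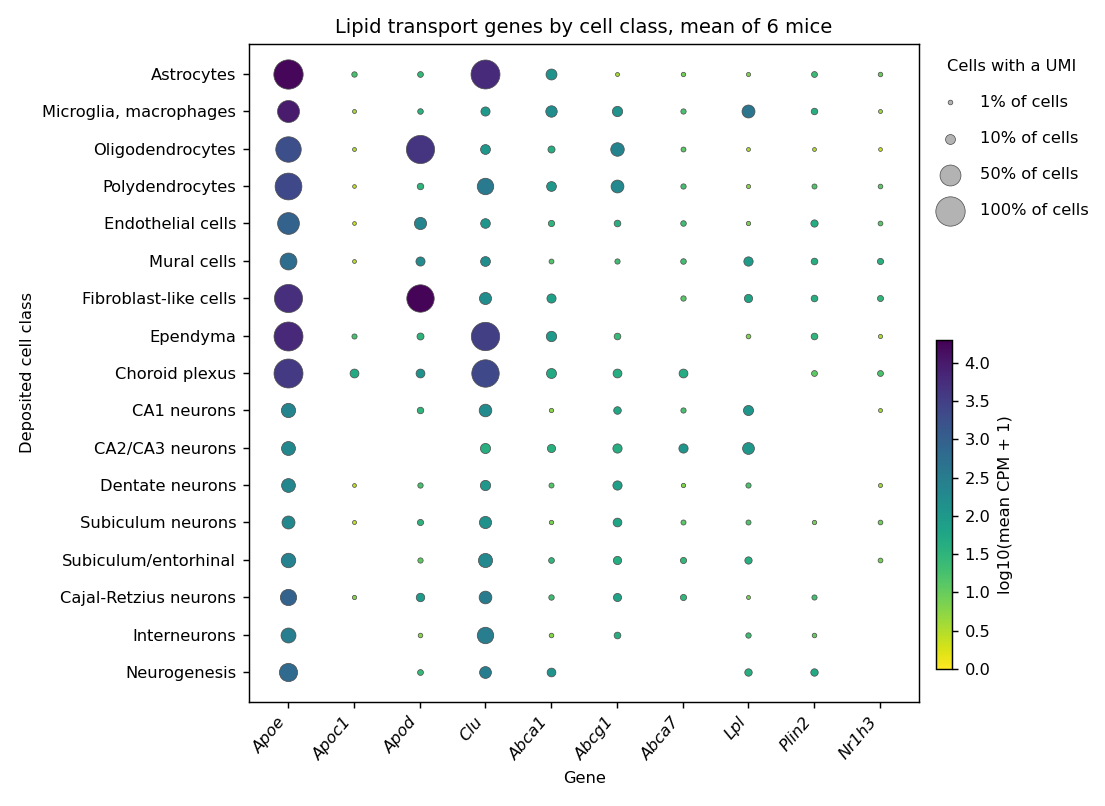
Levels of the 10 genes (columns) in the 17 deposited cell classes (rows); colour is log10 of the mean CPM over 6 mice plus 1, dot area follows the share of cells with a UMI, and no dot means no UMI. Apoe fills most rows, with astrocytes at 16828 CPM and microglia and macrophages at 9625 CPM, whereas Clu, Apod, Abcg1 and Lpl each have their strongest dots in 1 to 3 classes.

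The genes whose levels over the 10 tested classes were most like those of Clu, by Pearson correlation of log2(mean CPM + 1) among 8931 genes, were the astrocyte genes Slc1a2 (0.985), Ntsr2 (0.982) and Aldoc (0.975). For Apod they were Mal (0.969), a myelin gene, Bnip3l (0.941) and Traf5 (0.926). For Lpl they were the leukocyte genes Pik3cd (0.913), Lcp2 (0.895) and Lst1 (0.887), and for Abca1 they were Cmtm3 (0.968), Cklf (0.942) and Rpn2 (0.937). Apoe had Gna13 (0.924), Cklf (0.922) and Pnpla7 (0.920). The points are class means from shared libraries, so the values are descriptions.

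The treatment comparison asks whether these genes differed between ASO and PBS mice within a cell class. Mylip itself was the check of the labels: in microglia and macrophages, which held 74.3% of its UMIs, it had 167, 199 and 175 CPM in ASO mice and 354, 375 and 390 CPM in PBS mice, with no overlap. Its log2 fold change was -1.05 (SE 0.178, adjusted p = 0.00418 by edgeR, over 5473 genes).

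None of the 10 genes passed an adjusted p of 0.05 (edgeR quasi-likelihood test, Benjamini-Hochberg over all genes of a class) in any of the 10 classes or in all cells together. Of 33 gene and class pairs with enough counts, 5 had an unadjusted p under 0.05, where 4.77% of all gene tests in the 10 classes did. DESeq2 called 1 of the 33, Apoe in microglia and macrophages, where it called 0.0306% of all gene tests. In microglia and macrophages 6 of the 10 had enough counts to be tested, and 0 passed, where the share of all 5473 genes that passed was 0.0365%. Of the 6, 5 were higher and 1 lower in ASO mice, with a median log2 fold change of 0.34 against -0.01 over all genes. At an unadjusted p under 0.05, 3 of the 6 (Apoe, Plin2 and Lpl) were higher, where 2.76% of all genes were. In Apoe and Plin2 every ASO mouse lay above every PBS mouse, where 5.46% of all genes did so. The 10 genes were chosen with earlier results of these data known, so such counts set against all genes are descriptions.

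Apoe in microglia and macrophages was at 13153, 9417 and 13985 CPM in ASO replicates 1 to 3, and at 6253, 8867 and 6075 CPM in PBS replicates 1 to 3. The groups did not overlap, but ASO replicate 2, the lowest of its group, and PBS replicate 2, the highest of its group, were close. The log2 fold change was 0.81 (SE 0.184, n = 3 each), with an edgeR p of 8.84e-05 before and 0.121 after adjustment. Over the 13 alternatives the log2 fold change ran from 0.58 to 1.02 and the adjusted p from 0.00142 to 0.698, and 4 passed. These were DESeq2 (0.00687), no filter on low counts (0.0149), and leaving out ASO replicate 2 (0.00510) or PBS replicate 2 (0.00142). The lowest fold change, 0.58 with an adjusted p of 0.672, came without cells that held a UMI of an astrocyte or oligodendrocyte marker. Only 2472 genes had enough counts in that fit, against 5473 in the reported one, and deeper cells are more likely to hold a marker UMI. The part of lost counts in its values was not tested. Without cells that held a border macrophage marker the log2 fold change was 0.69 (adjusted p = 0.210).

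Within the class, the summed CPM of 6 border macrophage markers was 293 to 572 in ASO mice and 132 to 619 in PBS mice, and that of 6 astrocyte markers 508 to 834 in ASO mice and 553 to 818 in PBS mice. The 6 oligodendrocyte markers summed to 585 to 705 CPM in ASO mice and 354 to 517 CPM in PBS mice, without overlap, and their part in the Apoe difference was not tested beyond the value without such cells. Choroid plexus markers summed to 2346 to 7240 CPM in ASO mice and 53.8 to 5266 CPM in PBS mice, and their part was not tested. The mice were also ranked by mt-Rnr2 UMIs relative to mt-Cytb and cut in that order into 3 pairs, called technical sets here. The ratios of the ASO and the PBS mouse were 4.49 and 7.16 for replicates 2, 10.9 and 12.9 for replicates 1, and 15.9 and 16.8 for replicates 3. They run on without a clear gap between the sets. Each set held the ASO and the PBS mouse of the same number. Within the sets the log2 difference in Apoe, ASO minus PBS, was 1.13 for replicates 1, 0.07 for replicates 2 and 1.21 for replicates 3.

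**Figure D2:**
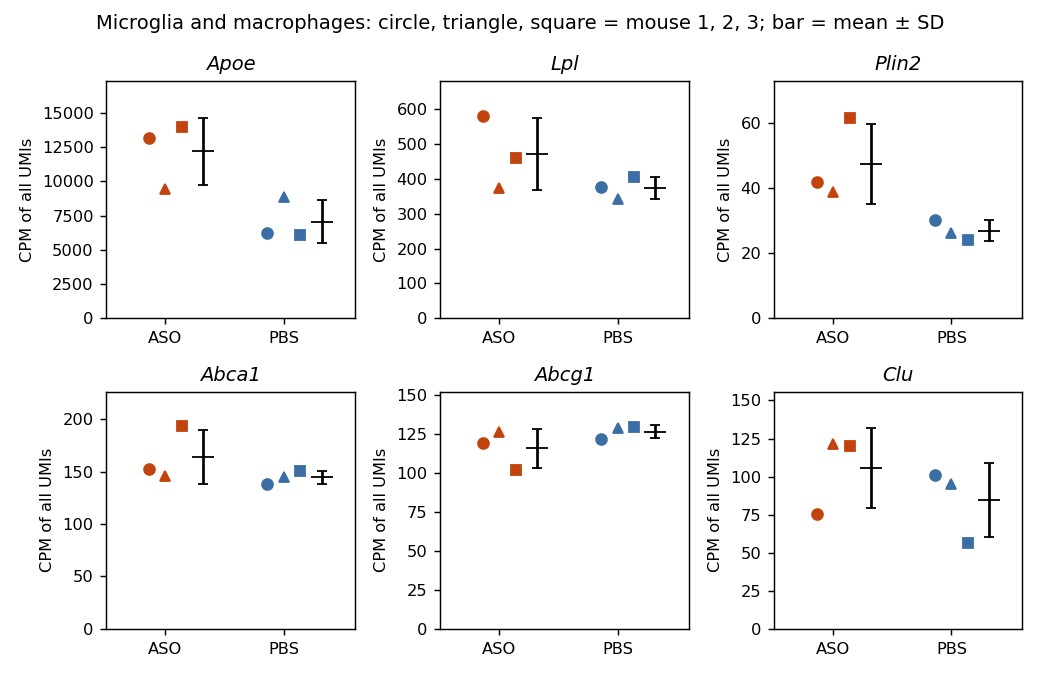
CPM of all UMIs in microglia and macrophages for the 6 genes tested there, ASO mice left and PBS mice right, each point a mouse (circle, triangle and square for replicates 1, 2 and 3) with the mean and SD of 3 mice. Groups are apart in Apoe and Plin2, and overlap in Lpl, Abca1, Abcg1 and Clu.

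Plin2 had 41.8, 38.8 and 61.5 CPM in ASO mice and 30.3, 26.3 and 24.2 CPM in PBS mice, without overlap, from 74 UMIs over the 6 mice. In the 1731 cells without a border macrophage marker UMI the groups overlapped, with ASO replicate 2 below every PBS mouse. Plin2 there was at 32.1, 21.1 and 52.0 in ASO mice and 28.8, 28.8 and 22.3 in PBS mice. These values are CPM of UMIs other than Apoe. The log2 fold change of Plin2 was 0.84 (SE 0.376, adjusted p = 0.845 by edgeR). Lpl had 581, 373 and 462 CPM in ASO mice and 377, 342 and 406 CPM in PBS mice, so ASO replicate 2 lay inside the PBS range. The log2 fold change of Lpl was 0.37 (SE 0.169, adjusted p = 0.845 by edgeR).

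The efflux genes themselves showed smaller differences in microglia and macrophages. Abca1 had 153, 145 and 194 CPM in ASO mice and 138, 145 and 151 CPM in PBS mice, a log2 fold change of 0.20 (SE 0.207). Abcg1 had 119, 126 and 102 CPM in ASO mice and 121, 128 and 129 CPM in PBS mice, a log2 fold change of -0.12 (SE 0.219). It turned to 0.24 in the smaller fit without cells that held an astrocyte or oligodendrocyte marker UMI. Both sets of groups overlapped, the adjusted p values were 0.936 and 0.990, and these values do not show that the groups were alike. Clu, at 75.2, 121 and 120 CPM in ASO mice and 101, 95.4 and 56.5 CPM in PBS mice, had a log2 fold change of 0.31 (SE 0.261).

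Astrocytes, the largest Apoe source, had 16918, 19493 and 14946 CPM of Apoe in ASO mice and 14560, 18135 and 16914 CPM in PBS mice, with overlap and a log2 fold change of 0.04 (SE 0.189). Of the 3 genes tested in astrocytes, Apoe, Clu (0.13, SE 0.170) and Abca1 (0.14, SE 0.218), 0 passed, as for all 6282 genes (0%, with 3.47% at an unadjusted p under 0.05). None of the 3 had an unadjusted p under 0.05.

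In oligodendrocytes 0 of 5 passed, where 0.238% of all genes did, and 1 of the 5 had an unadjusted p under 0.05, where 6.60% of all genes did. Apoe in this class, named after its values were seen, lay at 1752, 1843 and 1813 CPM in ASO mice and 1755, 1805 and 1995 CPM in PBS mice, a log2 fold change of -0.08 (SE 0.148). Apod, the leading apolipoprotein of this class, had 4856, 5104 and 3745 CPM in ASO mice and 3861, 4719 and 4055 CPM in PBS mice, a log2 fold change of 0.08 (SE 0.166), and the groups overlapped. Abcg1 had 190, 242 and 206 CPM in ASO mice and 255, 284 and 226 CPM in PBS mice, a log2 fold change of -0.30 (SE 0.166, adjusted p = 0.838), with 1 ASO mouse inside the PBS range.

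Abca1 in oligodendrocytes, a low-level class for it, is named after its values were seen. It had 51.5, 44.2 and 76.1 CPM in ASO mice and 28.5, 37.3 and 18.8 CPM in PBS mice, and every ASO mouse lay above every PBS mouse, as in 5.87% of all genes. The log2 fold change was 0.94 (SE 0.298), with an edgeR p of 0.00390 before and 0.284 after adjustment, and with DESeq2 the adjusted p was 0.9999. It rested on 144 UMIs, and 5.53% of ASO and 2.92% of PBS oligodendrocytes held one.

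In endothelial cells 0 of 5 passed (0% of all genes, 4.10% at an unadjusted p under 0.05), and 0 of the 5 had an unadjusted p under 0.05. Abcg1 there, also named after its values were seen, had 29.4, 35.3 and 26.8 CPM in ASO mice and 58.4, 47.4 and 41.2 CPM in PBS mice. All 3 ASO mice lay below the lowest PBS mouse, as in 4.74% of all genes, with a log2 fold change of -0.67 (SE 0.355, adjusted p = 0.9995 by edgeR) from 79 UMIs. Apod in endothelial cells was at 152, 395 and 173 CPM in ASO mice and 172, 208 and 221 CPM in PBS mice, with overlap (log2 fold change 0.23, SE 0.241). Plin2 in endothelial cells overlapped, at 43.0, 67.5 and 38.3 CPM in ASO mice and 54.7, 36.8 and 26.5 CPM in PBS mice (log2 fold change 0.35, SE 0.355).

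In polydendrocytes 0 of 4 passed, where 0.0447% of all genes did. Apoe had 2651, 3033 and 2242 CPM in ASO mice and 1504, 2329 and 2161 CPM in PBS mice, a log2 fold change of 0.41 (SE 0.225, adjusted p = 0.997 by edgeR), with ASO replicate 3 inside the PBS range. Abca1 had 195, 65.0 and 114 CPM in ASO mice and 77.0, 72.6 and 88.2 CPM in PBS mice. Its log2 fold change of 0.59 (SE 0.341) was -0.01 without ASO replicate 1. The log2 fold changes of Clu and Abcg1 were -0.03 (SE 0.213) and -0.09 (SE 0.260), and each turned positive when some single mice were left out.

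In cells labelled Cajal-Retzius 0 of 2 passed (0% of all genes, 4.44% at an unadjusted p under 0.05). Apoe there, named after its values were seen, had 533, 1122 and 2111 CPM in ASO mice and 678, 661 and 497 CPM in PBS mice. ASO replicate 1 lay inside the PBS range. The log2 fold change was 1.10 (SE 0.379), with an edgeR p of 0.00782 before and 0.966 after adjustment. It was 1.56 (adjusted p = 0.0146) without ASO replicate 1 and 0.36 without ASO replicate 3. In the same cells choroid plexus markers summed to 22740, 40655 and 98887 CPM in ASO mice and 34637, 12159 and 21302 CPM in PBS mice, and their part in the Apoe values was not tested. Clu in these cells was at 113, 421 and 542 CPM in ASO mice and 356, 289 and 208 CPM in PBS mice, with overlap (log2 fold change 0.30, SE 0.450).

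In the remaining tested classes, mural cells, CA1 neurons, dentate neurons and subiculum neurons, 8 gene tests were possible and 0 passed (0.257%, 0%, 0% and 0.188% of all genes in these classes). Their log2 fold changes ran from -0.66 (SE 0.423, Apod in mural cells) to 0.91 (SE 0.479, Clu in mural cells, named after its value was seen as the end of this range).

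**Figure D3:**
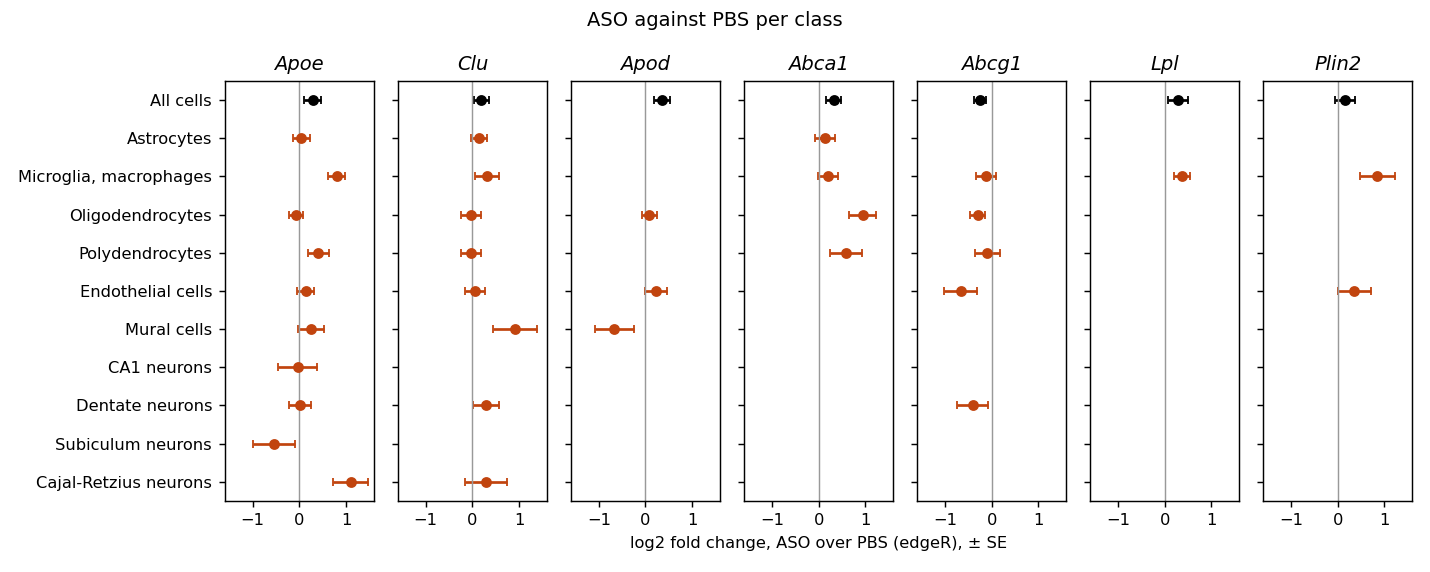
Log2 fold changes (ASO over PBS, edgeR) with their SE for the 7 genes that were tested in at least 1 cell class, one row per class and all cells on top in black; no point means too few counts to test. Apoe in microglia and macrophages (0.81), Plin2 in the same class (0.84), Abca1 in oligodendrocytes (0.94) and Apoe in cells labelled Cajal-Retzius (1.10) have the highest fold changes among tests with an unadjusted p under 0.05.

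In all cells together, where fewer cells of a type and less RNA per cell cannot be told apart, all 10 genes were tested and 0 passed (0.00714% of all genes). The log2 fold change was above 0 in 9 of the 10, against 50.5% of all genes, and the median was 0.24. Apoe had 5297, 5464 and 5608 CPM in ASO mice and 3936, 5290 and 4178 CPM in PBS mice, so the lowest ASO value stood just above the highest PBS value, and after scaling by edgeR they overlapped (log2 fold change 0.29, SE 0.179). Abcg1 was the gene below 0, at 98.1, 104 and 85.3 CPM in ASO mice and 113, 117 and 111 CPM in PBS mice, without overlap (log2 fold change -0.25, SE 0.129), as in 4.61% of all genes. Apod had the lowest p (log2 fold change 0.36, SE 0.171, edgeR p of 0.0487 before adjustment), and 1 of the 10 had an unadjusted p under 0.05, where 4.07% of all genes did. The log2 fold changes of the rare genes were 0.61 (SE 0.401) for Apoc1, 0.14 (SE 0.266) for Abca7 and 0.18 (SE 0.318) for Nr1h3.

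Whether the ASO effect differed between a class and all other cells was tested as an interaction with mouse as a block. The other cells were summed, so the shares of cell types in that sum can also move these values. Fibroblast-like cells, the class highest in Apod, numbered 27, 22 and 20 in ASO mice and 9, 19 and 11 in PBS mice. The part of such shares was not tested. Of 81 gene and class pairs 0 passed and 11 had an unadjusted p under 0.05, where 4.17% of all gene tests in the 10 classes did. Each class was also part of the other cells of every other class. A difference in a single class therefore enters other pairs with the opposite sign, and the 11 are not separate results. Apoe in microglia and macrophages minus other cells was 0.71 (SE 0.178, adjusted p = 0.179 by edgeR, where 0.0319% of 12531 genes passed). In oligodendrocytes minus other cells Apoe was -0.45 (SE 0.151, adjusted p = 0.377) and Apod -0.68 (SE 0.178, adjusted p = 0.125), where 0.190% of genes passed. Apoe in oligodendrocytes and the pairs that follow are named after their values were seen. Apoe in astrocytes was -0.47 (SE 0.187, adjusted p = 0.961 by edgeR). Apod was -1.02 in mural cells (SE 0.349, adjusted p = 0.840) and 1.77 in polydendrocytes (SE 0.575, adjusted p = 0.884). The share of all genes that passed was 0.0162% in astrocytes, 0.016% in endothelial cells, 0.0263% in mural cells, 0.0323% in polydendrocytes, 0.0373% in CA1 neurons, 0.0493% in dentate neurons, and 0% in subiculum neurons and in cells labelled Cajal-Retzius.

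The next question was whether more microglia and macrophages held Apoe or whether the cells that held it had more. Cells with 10 or more Apoe UMIs made up 33.4%, 20.9% and 34.7% of the class in ASO mice and 16.2%, 25.3% and 15.9% in PBS mice. These cells carried 88.1 to 94.4% of the Apoe UMIs of the class in the 6 mice. Cells with no Apoe UMI made up 42.5%, 45.8% and 32.3% in ASO mice and 52.2%, 45.0% and 51.6% in PBS mice, with PBS replicate 2 inside the ASO range. Among cells with Apoe the median count was 14, 4 and 10 UMIs in ASO mice and 3, 6 and 3 UMIs in PBS mice, and PBS replicate 2 lay above ASO replicate 2 in this count and in the share of cells with Apoe.

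Depth was made equal by thinning each cell to 617 UMIs, which left out no cell of the class. At least 1 Apoe UMI then remained in 54.0 ± 7.47% of ASO cells and 43.3 ± 4.18% of PBS cells (SD, n = 3 mice each), against 59.8 ± 7.01% and 50.4 ± 4.0% before thinning. The exact two-sided permutation p was 0.2, where 0.1 is the smallest the design allows, and it was 0.2 for minimums of 1, 3, 5 and 10 UMIs (0.2 after adjustment over these 4). The difference of 10.7 percentage points was 6.60 to 13.9 with single mice left out. The limit of 10 UMIs cuts a continuous range, with 55 of 1852 cells at 7 to 9 UMIs and 52 at 10 to 12.

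**Figure D4:**
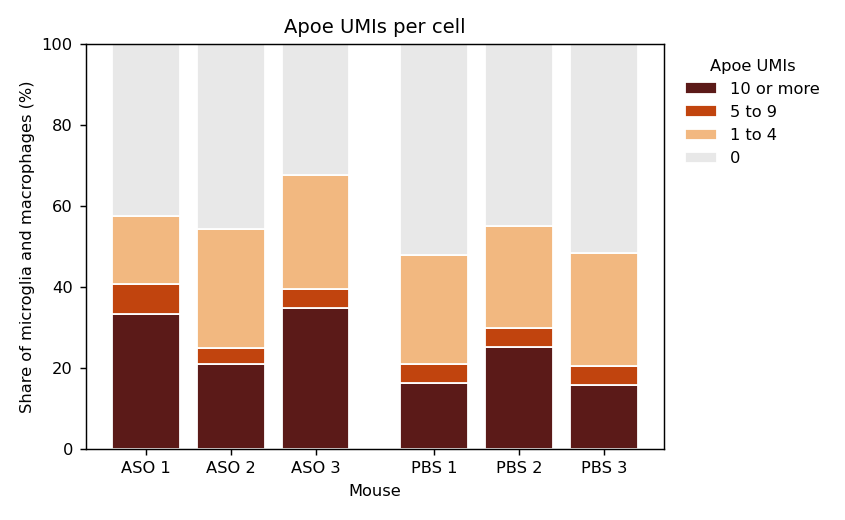
Share of microglia and macrophages (y axis, percent) by number of Apoe UMIs per cell, one bar per mouse, ASO mice left and PBS mice right. The darkest part, 10 or more UMIs, is 33.4% and 34.7% in ASO replicates 1 and 3, and 16.2% and 15.9% in PBS replicates 1 and 3, while replicates 2 stand at 20.9% (ASO) and 25.3% (PBS).

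Cells of the class were then grouped by Apoe UMIs, 465 cells with 10 or more, 558 with 1 to 9 and 829 with none, and levels of the other genes were set as CPM of all UMIs other than Apoe. The median depth was 1209, 959 and 905 UMIs per cell in these groups, and the values are descriptions over 6 mice with no test. Lpl was at 930 ± 314 CPM in cells with 10 or more Apoe UMIs, 414 ± 102 CPM in those with 1 to 9 and 113 ± 64.9 CPM in those with none, and higher in the richest group in 6 of 6 mice. Plin2 was at 78.4 ± 44.6, 28.6 ± 14.6 and 14.7 ± 9.68 CPM in the same order, and higher in 5 of 6 mice.

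Abca1 and Abcg1 did not follow Apoe. Abca1 was at 134 ± 45.7 CPM in cells with 10 or more Apoe UMIs and 163 ± 35.1 CPM in those with none, lower in 5 of 6 mice. Abcg1 was at 119 ± 36.7 and 120 ± 34.7 CPM, and Clu at 95.3 ± 15.3 and 84.6 ± 32.1 CPM. Astrocyte markers summed to 436 ± 149 CPM in the Apoe-rich cells, 853 ± 178 CPM in those with 1 to 9 Apoe UMIs and 660 ± 164 CPM in those with none. Oligodendrocyte markers in cells with 1 to 9 Apoe UMIs summed to 971, 718 and 1413 CPM in ASO mice and 399, 547 and 375 CPM in PBS mice, without overlap, and their part in the low Apoe counts was not tested.

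The Apoe-rich cells differed in other genes too. Trem2, a lipid-sensing receptor gene of microglia, was at 2809 ± 310 CPM against 1351 ± 153 CPM in cells with none, and Cst7, a cystatin gene of plaque-associated microglia, at 2152 ± 132 against 114 ± 36.8 CPM. P2ry12, a purinergic receptor gene of resting microglia, was at 531 ± 156 against 2007 ± 171 CPM, and lower in 6 of 6 mice, as were Cx3cr1, Tmem119 and Csf1r. Border macrophage markers summed to 1314 ± 722 CPM in the Apoe-rich cells and 15.5 ± 7.28 CPM in those with none. Without the 121 cells that held such a marker, Lpl was at 1075 ± 277 against 114 ± 65.6 CPM and Plin2 at 61.7 ± 30.0 against 14.9 ± 9.80 CPM.

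Between treatments, Plin2 in the Apoe-rich cells was at 112 ± 34.2 CPM in ASO mice and 44.5 ± 18.8 CPM in PBS mice (SD, n = 3 each), whereas Lpl in them was at 859 ± 215 CPM in ASO mice and 1001 ± 431 CPM in PBS mice. Abca1 was at 145 ± 24.5 CPM in ASO mice and 122 ± 65.1 CPM in PBS mice. The Plin2 values rest on 45 UMIs. Without border macrophage marker cells Plin2 was at 82.5 ± 29.6 CPM in ASO mice and 40.9 ± 9.20 CPM in PBS mice. Those values rest on 29 UMIs, and no test was made of any of these groups.

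**Figure D5:**
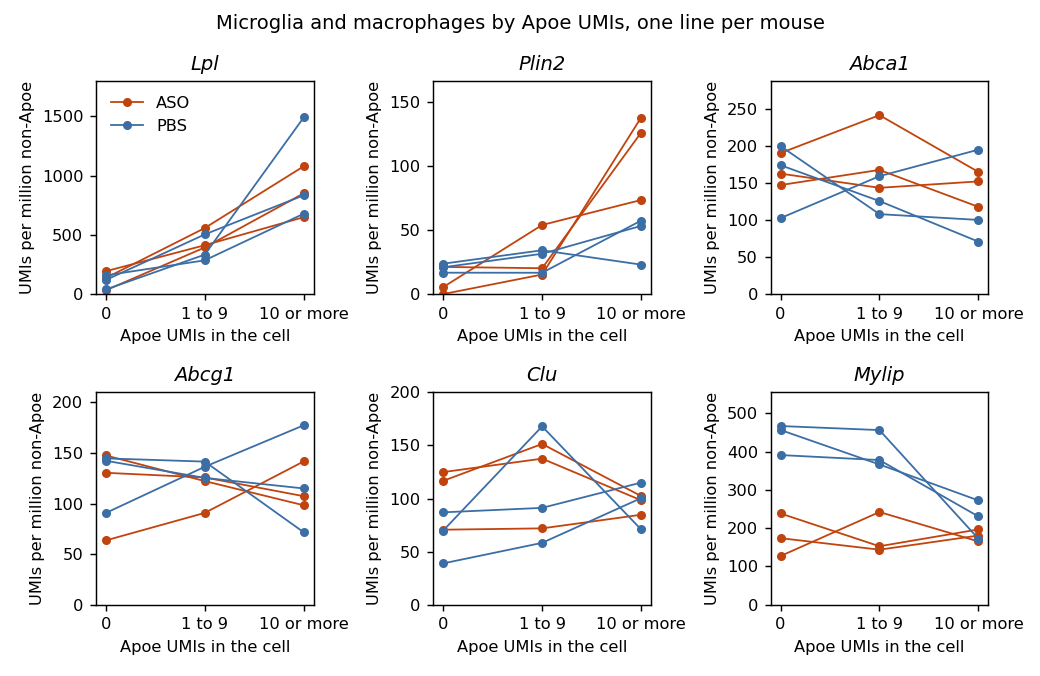
CPM of UMIs other than Apoe (y axis) in microglia and macrophages with 0, 1 to 9 and 10 or more Apoe UMIs (x axis), one line per mouse, ASO orange and PBS blue. Lpl climbs with Apoe in every mouse, and Abca1, Abcg1 and Clu show no common slope. Mylip is low in all groups of the ASO mice, and in cells with 10 or more Apoe UMIs the PBS mice overlap them.

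Among other genes of these pathways, lists were described by counts in microglia and macrophages, where 48.7% of all genes had a log2 fold change above 0. Of their 27 tested genes 3 had an unadjusted p under 0.05, Mylip, Npc2 and Abca9, where 5.52% of all genes of the class did. Of 15 other LXR targets 6 were tested, 2 higher and 4 lower, and 1 passed, Mylip itself, which was lower. Mertk, a receptor for dying cells, was at -0.18 on the log2 scale (SE 0.153) and Arl4c, a small GTPase gene, at -0.07 (SE 0.188). Of 8 LXR receptors and partners 5 were tested, with 3 higher, 2 lower and 0 past the threshold, among them the corepressor Ncor1 (0.08, SE 0.184) and the coactivator Ncoa1 (0.08, SE 0.201).

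Of 13 other sterol and phospholipid transporters 6 were tested, 4 higher and 2 lower, and 0 passed. Npc2, which carries cholesterol inside lysosomes, was higher in every ASO mouse than in every PBS mouse, as in 5.46% of all genes. The log2 fold change of Npc2 was 0.44 (SE 0.161, adjusted p = 0.767 by edgeR), and Abca9 had -0.42 (SE 0.200, adjusted p = 0.878 by edgeR). Of 16 lipase and fatty acid genes 7 were tested, 4 higher and 3 lower, and 0 passed. The lysosomal acid lipase gene Lipa had -0.44 (SE 0.251). Of 15 lipid droplet genes 3 were tested, 2 higher and 1 lower, and 0 passed, with Soat1, which esterifies cholesterol, at 0.25 (SE 0.251). Of 14 other apolipoprotein genes 0 had enough counts.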

How the data were processed

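Drop-Seq of hippocampus from 6 mice was analysed. The authors deposited raw counts, that is whole-number UMI counts per gene and cell with no normalization, and each column name carried the mouse and the authors' cell class. The submitters' processing notes name STAR 2.5.0c, bcl2fastq and the builds GRCm38 and mm10, but no counting program or gene annotation. Deposited cells had at least 501 detected genes and 569 to 1999 UMIs. Gene positions came from GENCODE annotation of GRCm38.

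Scrublet in scanpy 1.11.5 called 207 doublets (1.61%) within mice, which were removed. Counts were summed per mouse and class, since the mouse is the replicate. The quasi-likelihood test of edgeR 4.0.16 (R 4.3.3) set ASO against PBS after filterByExpr and TMM scaling, two-sided, with Benjamini-Hochberg adjustment over all genes tested in a class and a threshold of 0.05. Differences between classes used an edgeR interaction with mouse as a block. The code was tested on simulated data. CPM are counts scaled to all UMIs of a class, and SDs are over mice. Shares of cells were compared by exact permutation over 20 assignments. Intervals cover counting error only.

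The genes and lists were chosen with earlier results of these data known. Folds are given for each gene in the 3 tested classes with its highest level where it had enough counts, in microglia and macrophages and in all cells, and any other is said to be named after its values were seen. List genes are those past the threshold or among the 3 highest in microglia and macrophages. Alike genes needed a class mean of at least 50 CPM. Alternatives were DESeq2 1.42.0, DESeq2 size factors, no filter, doublets kept, a term for technical sets, cells with other classes' markers left out, and each mouse left out.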

Additional observations from a re-analysis of the deposited data

How the results depend on the processing

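No term for the 3 technical sets (a replicate block), which the labels do not give, was in the reported fits. Deviations from group means correlated at 0.129 to 0.264 within the sets and at -0.220 to -0.0176 across them. The deviations of a group cancel out for each gene, so positive values within sets must be balanced by negative ones across them. The sets came from the same data, so these correlations are descriptions. With the block the log2 fold change of Apoe in microglia and macrophages was 0.81 (adjusted p = 0.142 by edgeR), and no call of the 10 genes changed. Of 165 values of 33 named log2 fold changes under alternatives that kept all mice, 162 kept their direction and side of the threshold. Apoe in microglia and macrophages passed with no filter on low counts (0.81, adjusted p = 0.0149) and with DESeq2 (0.81, adjusted p = 0.00687), so 1 gene passed in that class under each, against 0. Abcg1 in that class turned to 0.24 without cells that held an astrocyte or oligodendrocyte marker UMI. Over all genes of the class, 2 of 5473 passed in the reported fit, 9 with no filter and 4 with the block. Without astrocyte or oligodendrocyte marker cells 0 of 2472 passed, and with a mouse left out 0 to 8 passed. The causes were not tested. Plin2 had too few counts for the fits without marker-holding cells. With each mouse left out in turn, 182 of 198 values held. Apoe in microglia and macrophages ran from 0.68 to 1.02, the number of genes past the threshold there from 0 to 1 and in cells labelled Cajal-Retzius from 0 to 1, and the difference in share of Apoe cells from 6.60 to 13.9 percentage points. Signs turned for Apoe in astrocytes (-0.0572 to 0.133), Apod in oligodendrocytes (-0.0206 to 0.197) and endothelial cells (-0.33 to 0.52), Clu in polydendrocytes (-0.172 to 0.0534) and Cajal-Retzius cells (-0.27 to 0.89), Abca1 (-0.0126 to 1.02) and Abcg1 (-0.409 to 0.0614) in polydendrocytes, and Abca7 in all cells (-0.14 to 0.33). Levels moved by less than 1 SD with doublets kept in 23 of 23 cases. Apoc1, Abca7 and Nr1h3, with 67, 201 and 97 UMIs, are limited by depth.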

Other observations

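Within microglia and macrophages, 121 cells held a UMI of a border macrophage marker (Mrc1, Pf4, Cd163, F13a1, Lyve1 or Ms4a7). Apoe in them was at 42688, 45092 and 53193 CPM of UMIs other than Apoe in ASO mice and at 21664, 39258 and 32665 in PBS mice. In the other 1731 cells it was at 10635, 6488 and 9425 in ASO mice and at 5263, 6237 and 5281 in PBS mice. In both groups of cells every ASO mouse lay above every PBS mouse. How many of all genes did so in these groups was not counted. The difference was not tested there apart from the fit without marker-holding cells. The marker-holding cells numbered 74 in ASO mice and 47 in PBS mice. The PBS mice therefore did not all reach the minimum of 20 cells set for a tested class, and values per mouse in these cells are descriptions. Lyz2, a lysozyme gene of myeloid cells, was at 11122 ± 1052 in ASO mice and 5756 ± 1747 in PBS mice in the marker-holding cells, and at 1352 ± 304 in ASO mice and 888 ± 134 in PBS mice in the others (SD, n = 3 each). Plin2 was at 197 ± 61.6 in ASO mice and 51.0 ± 48.3 in PBS mice in the marker-holding cells, from 17 UMIs. In the others Plin2 was at 35.1 ± 15.7 in ASO mice and 26.6 ± 3.77 in PBS mice, with overlap, from 57 UMIs.

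Mylip was also followed over cells grouped by their Apoe UMIs. As CPM of UMIs other than Apoe, Mylip in ASO mice was at 181 ± 15.7 in cells with 10 or more Apoe UMIs, 180 ± 54.4 in those with 1 to 9 and 180 ± 55.8 in those with none (SD, n = 3). In PBS mice it was at 225 ± 50.2, 400 ± 48.8 and 438 ± 41.1 in the same order. The means of ASO and PBS mice were closest in the cells richest in Apoe, and no test was made of groups formed by Apoe.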
